A study of Rattus norvegicus with 90 samples.

Results

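AR42J cells treated with cycloheximide (CHX) alone were compared with untreated AR42J cells 4 and 6 h into the time course. The comparison rests on 10 of the 90 arrays of the series, chosen by stimulus, time and title prefix and joined into 5 pairs, each of 1 CHX and 1 untreated array of the same batch and time. At 4 h there were 3 pairs (batches 4, 5 and 6), and at 6 h there were 2 (batches 4 and 5). AR42J is an established line from a rat pancreatic acinar tumour that carries the gastrin receptor, and total RNA of the cells was hybridised to Illumina rat bead arrays. The study followed the same cells with gastrin, a peptide hormone of the stomach, with gastrin and CHX together, with CHX alone and untreated. Arrays of batches 4 to 6 with gastrin and CHX against gastrin alone at 4 and 6 h (12 arrays, 5 pairs), and arrays with CHX against untreated at 1 and 2 h (8 arrays, 4 pairs), are used below for comparison. The dose of CHX and the time of its addition relative to time 0 are not given in the sources used here.

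CHX binds the large ribosomal subunit and blocks the translocation step of elongation, so that protein synthesis in the cell stops. Immediate early genes, which encode transcription factors and short-lived regulators, are known to accumulate mRNA under such a block, a response called superinduction. Nonsense-mediated decay, which degrades mRNAs with a premature stop codon, needs translation, and transcripts that it normally removes are known to build up when ribosomes stall. Roles of genes below are those known for their human and mouse counterparts.

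The promoters of 4 of the 15 most strongly raised genes are printed first, to show where motif matches lie in them. Of the 15 genes, 12 had a promoter in the table used. A CRE, a motif known to bind CREB and ATF factors, lay in 3 of these, all printed here, and not in the other 9. It lay in 0 of the 11 promoters found for the 15 largest falls. Each is the 250 bases before the gene's start in RefSeq, build GRCr8, 5′ to 3′ on the gene's own strand, with motif matches in capitals. Dusp1 (chr10:17184603-17184852, plus strand) holds a cAMP response element (the CRE) and an E-box. Slc25a25 (chr3:36116582-36116831, minus strand) and Ccnl1 (chr2:152507469-152507718, minus strand) hold a CRE. Gadd45g (chr17:13530352-13530601, minus strand) holds an E-box, an ATF4 composite element read on the opposite strand, and a TATA box.
Dusp1: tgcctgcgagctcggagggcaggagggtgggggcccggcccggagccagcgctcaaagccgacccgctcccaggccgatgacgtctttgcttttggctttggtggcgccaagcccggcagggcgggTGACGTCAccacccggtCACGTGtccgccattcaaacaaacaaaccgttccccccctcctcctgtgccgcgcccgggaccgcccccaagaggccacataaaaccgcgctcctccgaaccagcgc
Slc25a25: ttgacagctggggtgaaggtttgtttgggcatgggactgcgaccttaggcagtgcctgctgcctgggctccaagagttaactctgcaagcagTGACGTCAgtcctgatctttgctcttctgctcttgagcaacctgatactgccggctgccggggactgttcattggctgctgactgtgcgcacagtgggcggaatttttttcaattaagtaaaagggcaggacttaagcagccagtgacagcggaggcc
Ccnl1: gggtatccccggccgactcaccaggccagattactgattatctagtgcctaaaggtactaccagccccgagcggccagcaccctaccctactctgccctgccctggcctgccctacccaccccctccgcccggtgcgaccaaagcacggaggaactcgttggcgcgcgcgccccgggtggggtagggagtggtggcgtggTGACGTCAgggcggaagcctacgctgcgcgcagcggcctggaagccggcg
Gadd45g: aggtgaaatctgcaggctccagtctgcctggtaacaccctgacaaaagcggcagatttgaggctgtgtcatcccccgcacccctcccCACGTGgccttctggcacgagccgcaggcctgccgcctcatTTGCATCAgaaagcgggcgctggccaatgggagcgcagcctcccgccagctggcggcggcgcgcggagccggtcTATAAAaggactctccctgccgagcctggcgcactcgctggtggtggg

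The motifs were searched on both strands by these letters, where N is any base: CRE (TGACGTCA), AP-1 (TGACTCA), E-box (CACGTG), the ATF4 composite element (TGATGNAA), E2F (TTTCGCGC), the TATA box (TATAAA), 1 exact form of the NF-kB site, and the CArG box by its usual pattern. A CRE lay in 81 of the 1615 promoters of genes called higher after CHX (5.02%), in 9 of the 124 promoters of genes higher by more than 1 log2 unit (7.26%) in 31 of the 1774 promoters of genes called lower (1.75%) and in 2 of the 45 of genes lower by more than 1 (4.44%), against 255 of 10976 promoters of all genes measured (2.32%) and 466 of all 27457 promoters in the table (1.70%). An E-box lay in 7.55% of the promoters of genes called higher and 9.81% of those called lower, and in 11.3% and 11.1% of those that moved by more than 1 up and down, against 6.92% of all genes measured and 5.79% of all promoters. The TATA box lay in 7.99% of the promoters of genes called higher and 7.05% of those called lower, but in 16.1% of those of genes higher by more than 1, against 11.6% of all genes measured and 13.1% of all promoters. The E2F letters were rare, with 0.495% of genes called higher and 0.902% of those called lower, against 0.374% of all genes measured. The ATF4 composite element lay in 2.17% of the promoters of genes called higher and 2.20% of those called lower, against 2.72% of all genes measured. In the same order, AP-1 had 2.48%, 3.38% and 3.54%, the CArG box 0.991%, 1.18% and 1.11%, and the NF-kB form 0.124%, 0.113% and 0.0911%. No test was made of these shares, and a match describes the letters of this window only.

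All values below are log2 units as deposited, and a change is CHX minus untreated on that scale. Array medians lay between 6.403 and 6.406 over the whole series, and since the values of every array were spread almost identically, a shift of all RNA together would not show. In cultures measured whole, fewer cells of a kind and less RNA per cell cannot be told apart. Nothing in the labels says that batches came from separate cultures, and p-values therefore reflect only how far these samples scatter, which may be technical. In batches 4 to 6 the CHX arrays at 4 h belong to a title series without numbers and those at 6 h to a numbered one, so for the CHX effect time and title series cannot be told apart. The first principal component of the untreated arrays of the whole series held 58.5% of their variance. On it the unnumbered untreated arrays of batches 4 to 6 scored -57.6 to -49.9 at 4 h and -65.0 to -52.9 at 1 h, the numbered ones of these batches -34.5 to -23.7, and those of batches 1 to 3 13.3 to 25.9. The batch 4 CHX array at 6 h stood apart on an axis set by the untreated arrays at 2 h, with a score of 0.687 against 0.112 for its untreated partner, while the other 4 CHX arrays scored between -0.158 and 0.323.

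Acinar markers bore out the label of the cells. In the 10 arrays 21 of 29 acinar markers lay above the upper quartile of all probes (7.97), among them Cpa1, Cel, Ptf1a, Rbpjl and the gastrin receptor Cckbr, and the mean level of the list was 9.97 to 10.80 in CHX cells against 9.93 to 10.84 in untreated cells. Neuroendocrine markers, 10 of 24 above that quartile, and ductal markers, 5 of 11, were also present, as AR42J is known to hold acinar and neuroendocrine features. Only Col5a1 of 15 stromal markers and 0 of 12 immune and endothelial markers reached it. The mean level of the stromal list was 6.20 to 6.36 in CHX cells and 6.24 to 6.41 in untreated cells, and that of the immune and endothelial list 6.08 to 6.22 and 6.07 to 6.22.

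CHX alone changed transcripts of many kinds in both directions. With limma and Benjamini-Hochberg adjustment over 22523 probes, 5631 probes (25%) had an adjusted p under 0.05 over the 5 pairs, 2709 of them higher (12%) and 2922 lower (13%). Large rises outnumbered large falls: of the 293 called probes that moved by more than 1 log2 unit, 216 were higher and 77 lower. Among 13337 genes with a symbol, 1902 rose (14.3%) and 2091 fell (15.7%). The 5 CHX values all lay above the 5 untreated values for 528 genes (3.96%) and all below them for 472 (3.54%). The split between directions depended on centring. With arrays centred on 1000 probes that varied little between untreated arrays, 3189 probes were higher and 2414 lower, so that 56.9% of calls were higher, against 48.1% as deposited. Without batch 5, which leaves 3 of the 5 pairs, 2992 probes were called.

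The 5 pairs moved alike. Over all probes the correlation between pair differences ran from 0.514, between batch 6 at 4 h and batch 4 at 6 h, to 0.811, between batch 5 at 4 h and batch 5 at 6 h. The SD of the differences over probes was 0.291, 0.319 and 0.297 in the pairs of batches 4, 5 and 6 at 4 h and 0.346 and 0.365 in those of batches 4 and 5 at 6 h. These correlations run across probes, which are not independent replicates, and no pair shares an array with another. Batches 4 and 5 gave pairs at both times, and pairs of the same batch may be dependent. The fit treats the 5 pairs as independent.

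Txnip, Dusp1 and Gadd45g rose most. Per-array values are given for batches 4, 5 and 6 at 4 h, then for batches 4 and 5 at 6 h. Txnip, whose protein binds and inhibits thioredoxin and restrains glucose uptake, had 12.72, 13.91, 14.43, 13.69 and 13.99 in CHX cells, against 9.94, 10.07, 12.55, 10.73 and 9.92 in untreated cells. All CHX values exceeded all untreated ones, although the untreated batch 6 array stood well above the other 4. Txnip rose by 3.11 ± 0.30 (SE of the fit, n = 5 pairs), an 8.62-fold change on this scale, with an adjusted p of 4.32e-08. Dusp1, a phosphatase that switches off MAP kinases, had 11.24, 11.81, 12.72, 10.80 and 11.89 in CHX cells, against 8.15, 8.28, 10.05, 8.60 and 8.49 in untreated cells. The groups did not overlap, batch 6 was again the highest in each, and the rise was 2.98 ± 0.24 (adjusted p = 5.38e-09). Gadd45g, a stress-induced growth arrest gene, had 12.09, 12.59, 12.51, 13.81 and 12.87 in CHX cells, against 9.50, 9.31, 10.09, 10.64 and 9.58 in untreated cells. It rose by 2.95 ± 0.19 with no overlap (adjusted p = 1.95e-10).

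Nr1d1, Jun, Ccnl1 and Clk1 were also among the 15 largest rises. Nr1d1, which encodes the clock repressor REV-ERB alpha, had 10.49, 10.89, 10.76, 11.95 and 11.68 in CHX cells, against 7.94, 7.90, 9.11, 8.28 and 8.37 in untreated cells. The groups were well apart, and both 6 h CHX values were above all 4 h ones (rise 2.83 ± 0.20, adjusted p = 1.03e-09). Jun, a subunit of the AP-1 factor, had 11.04, 11.62, 11.37, 11.61 and 11.43 in CHX cells, against 8.67, 8.28, 9.05, 8.91 and 8.72 in untreated cells. Its CHX values lay within a narrow band more than 1 unit above the untreated values, and the rise was 2.69 ± 0.20 (adjusted p = 1.29e-09). Ccnl1, a cyclin that partners CDK11 in pre-mRNA splicing, had 10.95, 11.23, 11.77, 12.06 and 11.26 in CHX cells, against 9.19, 9.17, 9.88, 9.55 and 9.23 in untreated cells. Its rise of 2.05 ± 0.08 had the smallest error of the 15 largest rises (adjusted p = 3.19e-13). Clk1, a kinase that phosphorylates SR splicing factors, had 11.84, 11.77, 12.31, 11.78 and 11.75 in CHX cells, against 9.93, 9.94, 10.80, 9.79 and 9.69 in untreated cells, again without overlap (rise 1.86 ± 0.10, adjusted p = 1.40e-11).

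Egr1 showed a strong rise on an unsteady base. This zinc finger immediate early factor had 10.62, 12.16, 10.32, 13.88 and 10.98 in CHX cells, against 7.70, 9.50, 8.31, 11.31 and 9.12 in untreated cells. The groups overlapped, because the batch 4 untreated array at 6 h was higher than 3 of the CHX arrays (rise 2.41 ± 0.34, adjusted p = 9.28e-06). CHX was the higher array in 5 of 5 pairs, which the rule that picked the largest rises required. Junb, another AP-1 subunit, behaved alike, with 8.82, 10.27, 9.80, 11.67 and 10.22 in CHX cells and 7.12, 7.81, 8.13, 10.12 and 8.31 in untreated cells (rise 1.86 ± 0.19). In a fit that ignored the pairing, Egr1 and Junb were no longer called (adjusted p = 0.0801 and 0.119).

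The other 6 of the 15 largest rises were those of Taf1d, a subunit of the RNA polymerase I selectivity factor, the AMPK-related kinase gene Nuak2, Slc25a25, a mitochondrial ATP-Mg and phosphate carrier, Tmem140, the kinase gene Sgk1 and the zinc finger gene Klf10. Taf1d had 12.24, 11.41, 11.62, 11.01 and 11.15 in CHX cells, against 9.04, 8.86, 9.83, 8.90 and 8.48 in untreated cells, with more than 1 unit between the groups. Slc25a25 had 11.43, 12.19, 11.48, 11.58 and 12.59 in CHX cells, against 9.69, 9.24, 9.63, 10.02 and 9.61 in untreated cells. Its groups were as far apart. Sgk1, the serum- and glucocorticoid-regulated kinase, rose by 1.96 ± 0.31, but by 1.57 with an adjusted p of 0.0706 without batch 5. Of the 15 largest rises, 13 had groups that did not overlap, and all 15 were called at 4 h and at 6 h when these times were tested alone. The 15 were picked from these same arrays by size, call and sign in all 5 pairs, so these counts describe them and give no separate support.

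**Figure D1:**
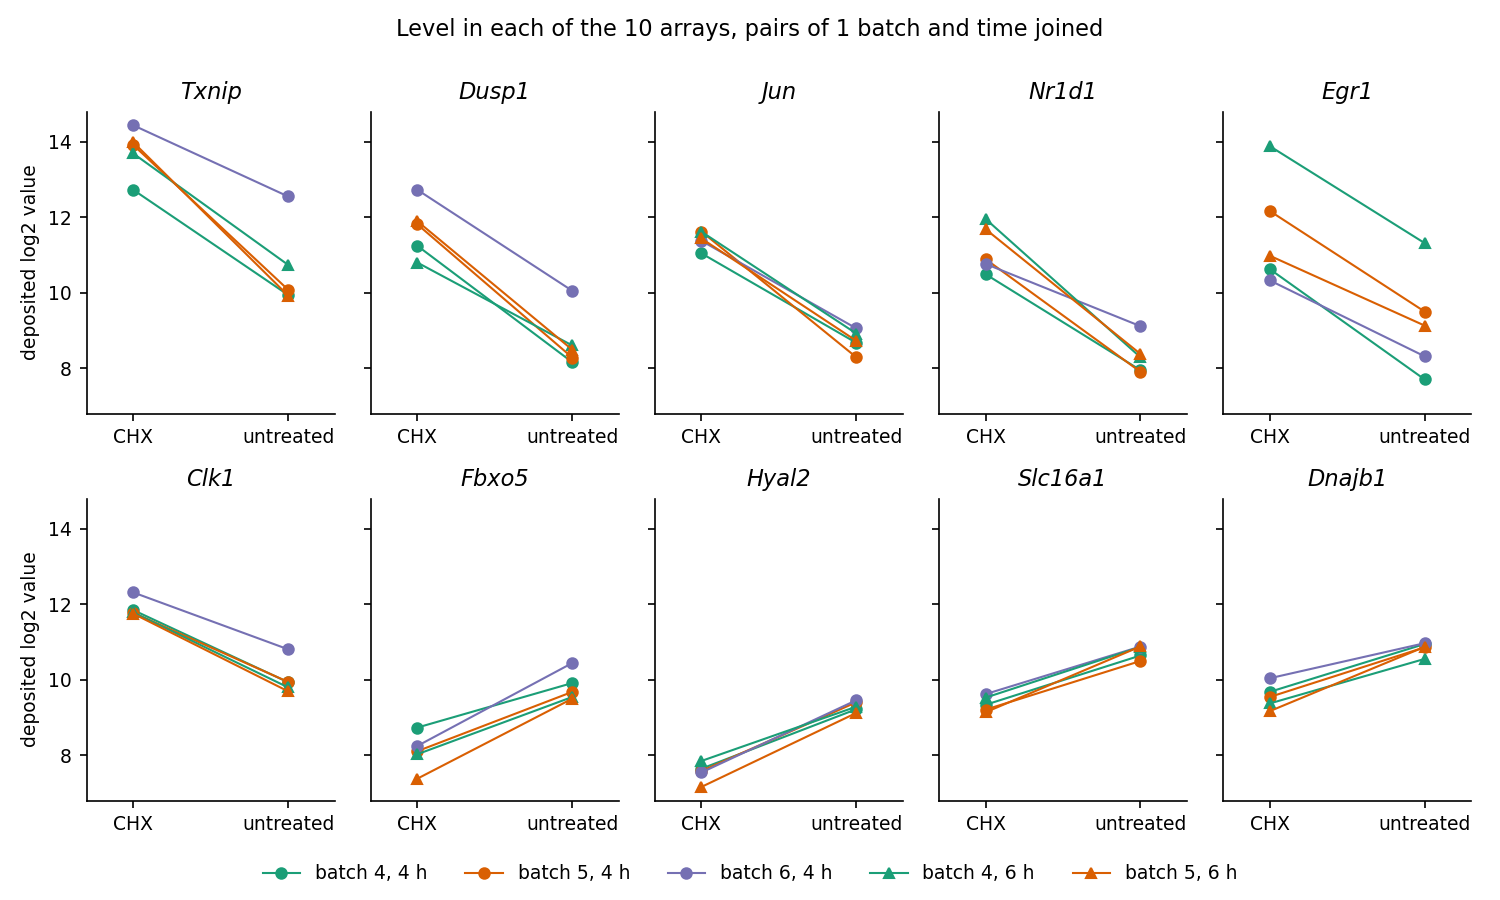
Deposited log2 level of 10 genes in the 10 arrays, CHX on the left and untreated on the right of each panel, with a line joining the arrays of a batch and time (circles 4 h, triangles 6 h). The lines run the same way in all 5 pairs of each gene, which the rule that picked the genes required. The 5 CHX and 5 untreated values do not overlap except for Egr1.

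The largest falls were smaller than the largest rises. Hyal2, a hyaluronidase anchored at the cell surface, had 7.64, 7.58, 7.54, 7.84 and 7.15 in CHX cells, against 9.21, 9.40, 9.45, 9.28 and 9.12 in untreated cells. The groups were more than 1 unit apart, and the fall was -1.74 ± 0.09, or 0.30-fold (adjusted p = 7.27e-12). Fbxo5, whose protein EMI1 inhibits the anaphase-promoting complex, had 8.73, 8.10, 8.24, 8.02 and 7.37 in CHX cells, against 9.91, 9.67, 10.44, 9.54 and 9.49 in untreated cells. All CHX values lay below all untreated ones (-1.72 ± 0.12, adjusted p = 5.12e-10). Slc16a1, which encodes the lactate transporter MCT1, had 9.33, 9.20, 9.61, 9.52 and 9.13 in CHX cells, against 10.64, 10.49, 10.88, 10.86 and 10.88 in untreated cells. In 4 of the pairs it fell by nearly the same amount, between -1.34 and -1.26, and in batch 5 at 6 h by -1.75. Dnajb1, an HSP40 co-chaperone, had 9.67, 9.54, 10.03, 9.37 and 9.16 in CHX cells, against 10.94, 10.85, 10.96, 10.55 and 10.87 in untreated cells. The groups did not overlap (-1.28 ± 0.10, adjusted p = 4.54e-09).

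Cdca7 and Ccne2 stood among the other falls. Cdca7, a cell division cycle associated gene, had 7.93, 8.21, 8.32, 7.64 and 8.10 in CHX cells, against 9.26, 9.85, 9.79, 9.34 and 9.95 in untreated cells, a fall of -1.60 ± 0.09. Ccne2, the S phase cyclin E2, had 7.76, 7.15, 8.07, 7.11 and 7.12 in CHX cells, against 8.99, 9.24, 9.26, 8.02 and 8.93 in untreated cells. The untreated batch 4 array at 6 h lay just under the highest CHX array, so the groups overlapped. Every pair fell, which the rule that picked the largest falls required. The remaining 9 were Lrrn1, the activin receptor gene Acvr2b, Ube2t of the Fanconi anaemia pathway, Zbed4, the LIM domain gene Fhl3, the eIF4E kinase gene Mknk2, the ER co-chaperone gene Dnajb9, the sulfotransferase gene Chst1 and Mapk6, which encodes the kinase ERK3, with changes between -1.74 and -1.33. A dim second probe of Acvr2b changed by -0.17 (adjusted p = 0.0656), and the 2 other probes of Zbed4 changed by 0.05 (adjusted p = 0.575) and -0.45, and a dim second probe of Cdca7 by -0.26 (adjusted p = 0.00506), so the sizes for these genes rest on 1 probe. Among the rises a second probe of Tmem140 changed by 1.03, against 2.20 for the probe used. Of the 15 largest falls, 13 had groups that did not overlap, all 15 were called at 4 h and at 6 h alone, and none lost its call in any alternative run. They were picked from these same arrays in the same way as the rises, so these counts too give no separate support.

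**Figure D2:**
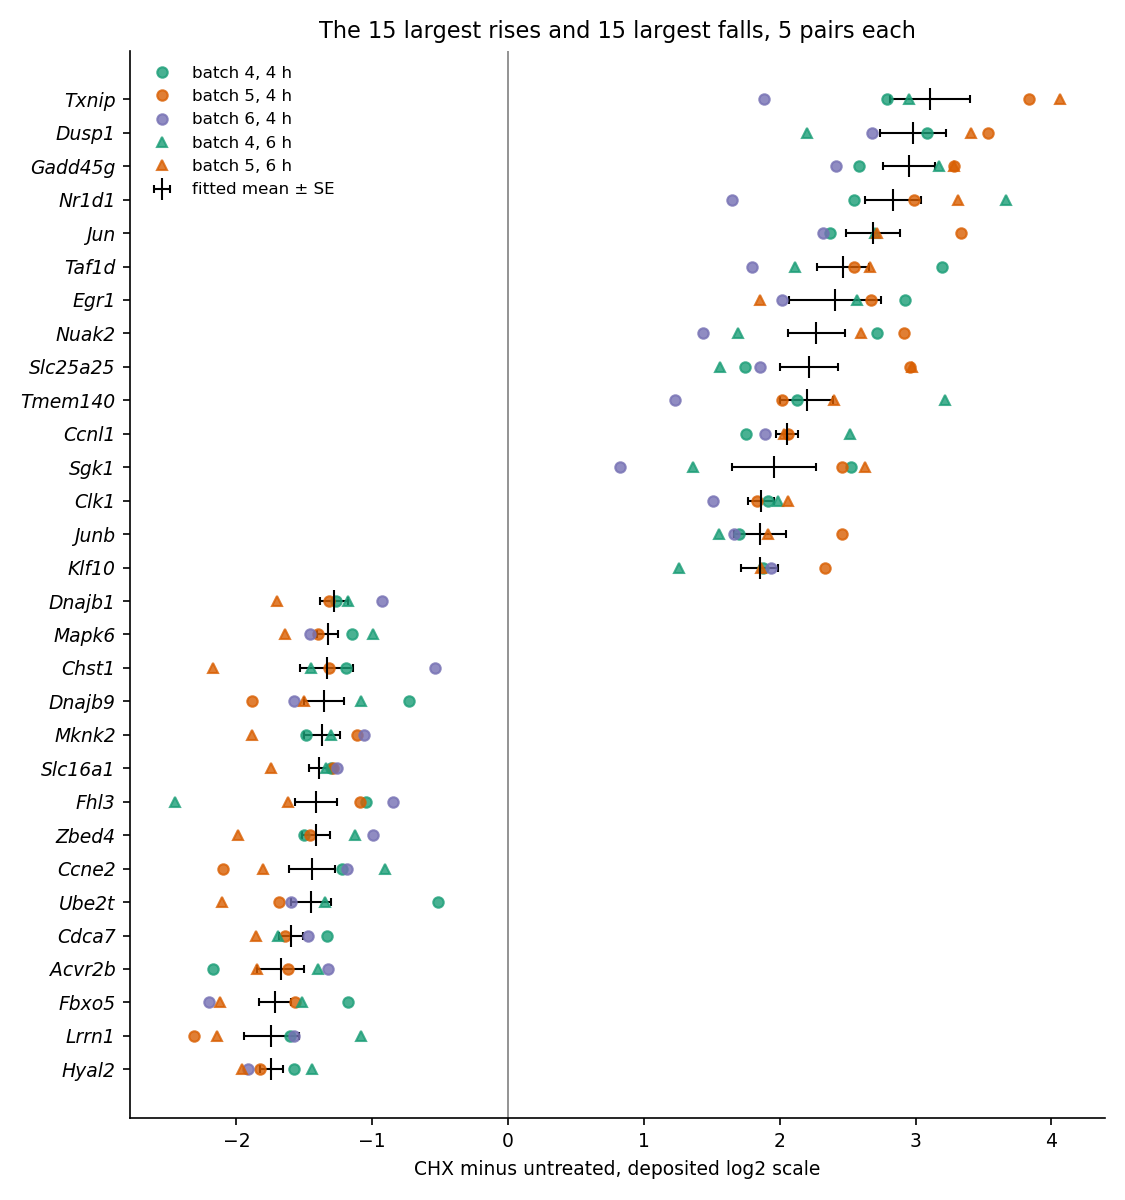
CHX minus untreated on the log2 scale in each of the 5 pairs (points) with the fitted mean and its SE (bars) for the 15 largest rises and the 15 largest falls. The rule that picked these genes required all 5 points to lie on the same side of 0. Means run from 3.11 for Txnip down to -1.74 for Hyal2.

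Groups of genes with a common role are given next as counts of members called higher and lower, to be read against 14.3% and 15.7% of all named genes and a median change of -0.01 over all probes. Some genes stand in more than 1 list, as Nfil3 does among the immediate early and clock genes, so the lists are not separate results. Most lists had fewer members called in a fit that ignored the pairing. Immediate early factors rose. Of 25 measured, 17 were called higher and 0 lower, with a median change of 0.58, and 6 had CHX values all above the untreated ones. Besides Jun, Egr1, Junb and Klf10, the rises included the leucine zipper repressor gene Nfil3 (1.62 ± 0.19), the proto-oncogene Myc (1.32 ± 0.13) and the stress factor gene Atf3 (1.14 ± 0.18). Klf10 had 10.34, 11.04, 11.46, 10.04 and 10.82 in CHX cells, against 8.46, 8.71, 9.53, 8.78 and 8.96 in untreated cells. The orphan nuclear receptor genes Nr4a1 and Nr4a2 were not called, with changes of -0.07 and -0.08. In the fit without the pairing 6 members of the list were called higher, and with batch and time as separate terms 10, while without batch 5 there were 15.

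Feedback regulators of signalling split. Of 25 measured, 9 rose and 3 fell, and the median change was 0.03. The MAP kinase phosphatase genes led: besides Dusp1, Dusp10 had 9.85, 10.46, 8.91, 10.62 and 9.75 in CHX cells, against 8.23, 8.26, 7.96, 8.60 and 7.85 in untreated cells. Those groups did not overlap, and the rise was 1.74 ± 0.24. Dusp8 had 8.74, 9.29, 8.62, 9.42 and 9.25 in CHX cells, against 7.87, 7.23, 7.97, 8.21 and 7.34 in untreated cells, a rise of 1.34 ± 0.18, while a dim second probe of Dusp8 changed by 0.17 (adjusted p = 0.0404). Not called were Dusp2, Dusp4 and Dusp5, at -0.06, -0.04 and -0.01. Spred1, an inhibitor of RAS to ERK signalling, and Sh2b3, an adaptor that restrains JAK2, fell by 0.59 and 0.58 on the log2 scale. Without batch 4, 5 members of the list were called higher and 3 lower, and without batch 5, 6 and 2.

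Transcripts known as substrates of nonsense-mediated decay had the largest share of members raised among the 31 lists. Its raised members include Atf3, Atf4, Ddit3, Gadd45a and Gadd45b, which are also counted among immediate early, ATF4 response or p53 target genes. Of 29 measured genes with such transcripts, 22 rose and 3 fell, the median change was 0.68, and 15 had CHX values all above the untreated ones. The fit without the pairing called 15 higher and 0 lower. Clk4, a relative of Clk1, had 9.28, 9.39, 10.49, 9.74 and 9.45 in CHX cells, against 8.10, 8.09, 9.07, 8.10 and 7.96 in untreated cells (rise 1.41 ± 0.08, adjusted p = 2.68e-11). Rsrc2 rose by 1.36 ± 0.07, the splicing repressor gene Ptbp2 by 1.34 ± 0.12 and the splicing factor gene Rbm39 by 1.24 ± 0.07, each with no overlap of groups. The growth arrest gene Gadd45b had 9.52, 9.02, 9.93, 10.95 and 9.45 in CHX cells, against 7.49, 7.63, 8.94, 8.46 and 8.06 in untreated cells (1.66 ± 0.19). Gadd45a rose by 1.42 ± 0.18. Sesn1 and Rbm3 fell, by 0.43 and 0.39 on the log2 scale. Uqcc5, lower by 0.28, is not itself a symbol of the list. It was matched to a listed symbol through a synonym, and the counts of 29 and 3 include it. The probes do not tell a transcript with a premature stop from the productive one of the same gene. Without batch 5, 19 members rose and 1 fell.

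The decay machinery itself moved less. Of 8 factors of nonsense-mediated decay measured, 3 were called higher (Upf3a, Upf2 and Casc3), by at most 0.23, and each lost its call without batch 5, at 0.19, 0.13 and 0.11. Without batch 4, 1 of the 8 was called higher. Of 22 factors that act on short-lived mRNAs, 4 rose and 5 fell. The deadenylase subunit genes Pan3 and Pan2 rose by 0.62 ± 0.07 and 0.40 ± 0.08, and Cnot6, a deadenylase of the CCR4-NOT complex, fell by 0.63 on the log2 scale. Without batch 5, 5 of these 22 rose and 3 fell, and without the batch 4 arrays at 6 h, 4 rose and 8 fell.

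Of 31 genes of the ATF4 response, 6 rose (19.4%) and 10 fell (32.3%), with a median of -0.09. Atf4, the factor that drives the amino acid response, had 12.55, 12.43, 12.23, 13.01 and 12.67 in CHX cells, against 11.32, 11.31, 11.64, 11.51 and 11.06 in untreated cells. It rose without overlap by 1.21 ± 0.11 (adjusted p = 2.67e-08). Asns, the asparagine synthetase gene and a known ATF4 target, had 8.06, 7.95, 8.20, 8.11 and 7.88 in CHX cells, against 9.30, 8.65, 9.31, 9.03 and 8.65 in untreated cells. Its CHX values were all lower and lay close together (-0.95 ± 0.10, adjusted p = 2.00e-07). Phgdh, which begins serine synthesis, fell by 0.92 on the log2 scale. The 6 that rose included the stress factor genes Cebpb (1.10 ± 0.27) and Ddit3 (0.99 ± 0.15). Counts of the list were 3 and 7 without batch 4 and 4 and 6 without batch 5.

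Of 17 aminoacyl-tRNA synthetase genes, 0 rose and 10 fell, with a median of -0.27. In the fit without the pairing, 2 were called lower. Kars1, which charges lysine tRNA, had 9.49, 9.79, 9.66, 9.69 and 9.54 in CHX cells, against 10.20, 10.26, 10.28, 10.39 and 10.14 in untreated cells. Each group was tight and the fall was -0.62 ± 0.06 (adjusted p = 3.59e-08). Without batch 4 or without batch 5, 4 synthetases were called lower. Genes of the unfolded protein response and ER folding fell or were not called: 15 of 29 fell and 0 rose, with a median of -0.26. Ignoring the pairing left 6 of this list called lower. Dnajb9 had 8.25, 7.61, 9.10, 8.53 and 8.07 in CHX cells, against 8.98, 9.50, 10.68, 9.61 and 9.57 in untreated cells. Batch 6 was the highest in each group, and the groups overlapped (-1.36 ± 0.15). All pairs fell, which the rule that picked the largest falls required. The translocon gene Sec61a1 fell by 0.80 and the ER degradation gene Edem1 by 0.79 on the log2 scale, each with all CHX values lower. Hspa5, the BiP chaperone gene, was not called, at 0.00. Without batch 5, 9 genes of this list fell. Of 22 cytosolic chaperones and heat shock genes, 1 rose and 7 fell, led by Dnajb1, and without batch 5 none rose and 3 fell.

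Of 52 ribosomal protein genes 1 rose (1.92%) and 11 fell (21.2%), with a median of -0.04, and without batch 5 none rose and 5 fell. Rps16 fell by 0.47 on the log2 scale, with all CHX values lower. Of 29 translation factors 8 rose and 8 fell. Eif4a2, a helicase of the initiation complex, had 12.58, 12.36, 12.92, 12.52 and 12.72 in CHX cells, against 11.09, 10.75, 11.56, 11.13 and 10.59 in untreated cells. The groups were apart and the rise was 1.60 ± 0.09 (adjusted p = 5.24e-11), while its paralog Eif4a1 was not called, at 0.04. The release factor gene Gspt1 fell by 0.61 on the log2 scale. Ribosome biogenesis genes split into 14 that rose and 13 that fell of 48, with Taf1d and the export adaptor gene Nmd3 (1.05 ± 0.11) highest. Without batch 5 the translation factors gave 5 that rose and 6 that fell, and the biogenesis genes 9 and 10.

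**Figure D3:**
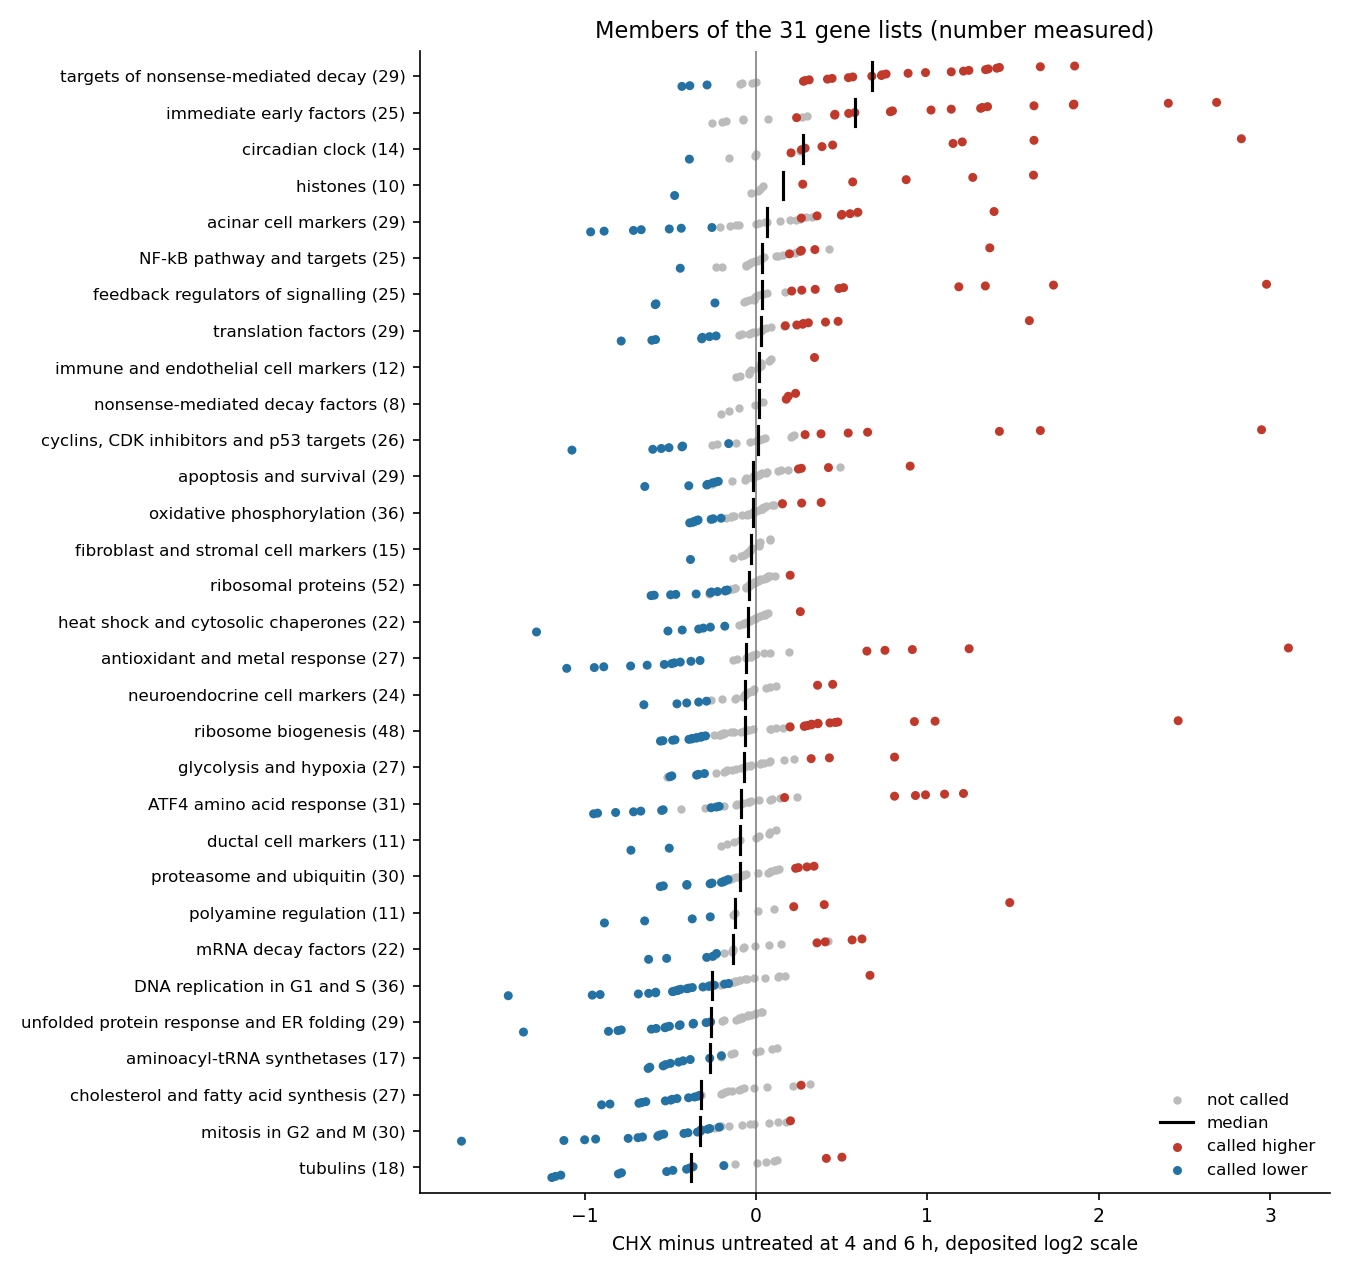
Change after CHX on the log2 scale of every measured member of 31 lists (red called higher, blue called lower, grey not called), with the list's median as a bar. Immediate early factors and genes with decay-prone transcripts lie to the right (medians 0.58 and 0.68), and mitotic genes, synthetases, ER folding genes and tubulins to the left.

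Cell cycle genes fell in both phases listed. Of 36 replication genes 1 rose and 21 fell (median -0.26), and of 30 mitotic genes 1 rose and 20 fell (median -0.32). The fit without the pairing called 12 replication and 10 mitotic genes lower. Cdk1, the mitotic kinase, had 11.70, 11.18, 11.02, 10.50 and 9.70 in CHX cells, against 11.82, 12.11, 11.90, 11.97 and 11.90 in untreated cells. Untreated values were nearly constant, and the CHX values of batches 4 and 5 were lower at 6 h than at 4 h (-1.12 ± 0.11, adjusted p = 6.66e-08). Aurkb, the kinase of the chromosomal passenger complex, had 10.55, 9.91, 9.80, 9.32 and 9.27 in CHX cells, against 10.80, 10.69, 10.81, 10.78 and 10.77 in untreated cells. Fen1, the flap endonuclease of lagging strand synthesis, had 9.83, 9.82, 10.37, 9.75 and 9.25 in CHX cells, against 10.88, 10.68, 10.79, 10.56 and 10.88 in untreated cells, and Orc1, of the origin recognition complex, fell by 0.91 on the log2 scale. All CHX values of Aurkb, Fen1 and Orc1 were below all untreated values. Pole, a DNA polymerase subunit gene, was the replication gene that rose (0.67 ± 0.12). Without batch 5, 12 replication and 8 mitotic genes were called lower.

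Among cyclins, CDK inhibitors and p53 targets, 7 of 26 rose and 7 fell. The 3 Gadd45 genes led the rises, Cdkn1b, which encodes the CDK inhibitor p27, rose by 0.65 ± 0.12, and Ccng1 fell by 1.07 on the log2 scale, while Cdkn1a, encoding p21, was not called at 0.00. Without batch 5, 4 rose and 5 fell. Histone genes rose more than they fell, 5 against 1 of 10. H3f3b, which encodes the replication-independent histone H3.3, had 14.29, 14.22, 13.78, 14.07 and 14.40 in CHX cells, against 12.88, 12.41, 12.65, 12.30 and 12.42 in untreated cells, a rise of 1.62 ± 0.12 near the top of the scale. The canonical histone gene Hist2h3c2 rose by 1.27 ± 0.12. Without batch 5, 3 histone genes rose. Tubulins and their partners fell, 11 of 18 with 2 higher and a median of -0.38. Tubb5 had 10.76, 10.46, 10.27, 10.45 and 9.56 in CHX cells, against 11.71, 11.62, 11.22, 11.52 and 11.27 in untreated cells, and did not overlap (-1.17 ± 0.10). Tuba4a had 11.76, 11.12, 11.15, 10.73 and 10.15 in CHX cells, against 12.30, 12.32, 12.23, 12.38 and 11.65 in untreated cells, and the highest CHX array overlapped the lowest untreated one (-1.19 ± 0.09). Tuba1a was not called, at 0.11, and without batch 5, 8 members of the list fell.

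Of 29 genes of apoptosis and survival 4 rose (13.8%) and 7 fell (24.1%), and 4 and 5 after centring on invariant probes. Mcl1, an antiapoptotic BCL2 relative with a short-lived protein, had 10.23, 10.25, 10.18, 11.15 and 10.68 in CHX cells, against 9.39, 9.41, 9.50, 9.88 and 9.80 in untreated cells. Those groups were apart (0.90 ± 0.11), and Apaf1, the apoptosome scaffold, fell by 0.65 on the log2 scale. Of 25 NF-kB genes 5 rose (20%) and 1 fell (4%). Nfkbia, the inhibitor of NF-kB that the factor itself induces, had 11.38, 11.73, 13.23, 11.22 and 12.55 in CHX cells, against 10.21, 10.29, 11.15, 10.74 and 10.90 in untreated cells, and rose by 1.36 ± 0.16. Without batch 5, 2 survival genes rose and 3 fell, and 2 NF-kB genes rose and 1 fell. Without batch 4, 3 NF-kB genes rose.

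Of 27 cholesterol and fatty acid synthesis genes 1 rose and 13 fell, with a median of -0.32. Sqle, the squalene epoxidase gene, had 11.31, 11.16, 10.80, 10.85 and 10.37 in CHX cells, against 11.65, 11.79, 11.72, 11.83 and 11.98 in untreated cells, with no overlap (-0.90 ± 0.10). The regulator genes Scap and Srebf2 fell by 0.68 and 0.67 on the log2 scale. Antioxidant and metal response genes split into 5 that rose and 11 that fell of 27: the transcription factor gene Nfe2l2 rose by 0.65 ± 0.07 while Gclc and Txnrd1, known targets of its protein NRF2, fell by 1.10 and 0.89. Oxidative phosphorylation gave 3 higher and 9 lower of 36, with a median of -0.02 that was 0.01 after centring on invariant probes. Glycolysis and hypoxia gave 3 and 5 of 27 (4 and 4 after such centring), and proteasome and ubiquitin 4 and 10 of 30, with no member of either beyond 1 log2 unit. Without batch 5 the cholesterol list gave 0 higher and 8 lower, oxidative phosphorylation 1 and 6, glycolysis 2 and 1, and the proteasome list 2 and 4. Without batch 4 glycolysis gave 1 and 6, and the proteasome list 4 and 4. Without the batch 4 arrays at 6 h the proteasome list gave 3 and 6.

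Of 11 genes of polyamine regulation 3 rose and 4 fell. Sat1, the polyamine acetyltransferase gene, had 10.25, 9.86, 9.94, 11.06 and 10.65 in CHX cells, against 8.46, 8.60, 8.70, 9.70 and 8.91 in untreated cells (1.48 ± 0.12, no overlap), while the spermine synthase gene Sms fell by 0.88 on the log2 scale. Clock genes rose, 9 of 14 with 1 lower and a median of 0.28. After Nr1d1 and Nfil3 came Bhlhe40 (1.20 ± 0.19) and the period gene Per1 (1.15 ± 0.24), whereas Cry1 fell by 0.39 on the log2 scale. Without batch 5, 6 clock genes rose and 0 fell, and without batch 4, 10 rose and 2 fell.

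Of 29 acinar markers 7 rose and 7 fell, with enzyme genes on both sides. In the fit without the pairing, 3 were called higher and 1 lower. Ptf1a, the acinar lineage factor, had 13.72, 13.95, 13.68, 14.47 and 14.31 in CHX cells, against 12.37, 12.48, 12.83, 12.66 and 12.84 in untreated cells. Its groups were apart by nearly 1 unit (1.39 ± 0.09, adjusted p = 1.72e-10), and its partner gene Rbpjl rose by 0.55 ± 0.09. The trypsinogen gene Prss3 had 10.80, 10.46, 12.89, 10.08 and 10.14 in CHX cells, against 11.34, 11.33, 13.65, 11.46 and 11.41 in untreated cells. Batch 6 was the highest in each group, so the groups overlapped while each pair fell (-0.96 ± 0.11). Without the pairing the fall of Prss3 was not called (adjusted p = 0.335). Amy1 and Cela3b fell by 0.71 and 0.67 on the log2 scale, whereas the lipase-related Pnliprp2 rose by 0.60 ± 0.10 and the elastase gene Cela2a by 0.27. Neuroendocrine markers gave 2 higher and 5 lower of 24, led by the prohormone convertase gene Pcsk2 (-0.65 ± 0.08), and ductal markers 0 and 2 of 11, with Epcam lower by 0.73 on the log2 scale. Among stromal markers S100a4 was called lower, and among immune and endothelial ones Emcn higher, by 0.34, a call that was lost without batch 4 or batch 5 (0.27 and 0.31). Without batch 5, 3 acinar markers rose and 4 fell, 0 and 3 neuroendocrine ones, and 1 ductal marker fell.

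Nearly all calls shared by 4 h and 6 h had the same sign. Tested alone, 4 h gave 3540 called probes (15.7%; 1735 higher, 1805 lower) and 6 h gave 4139 (18.4%; 2019 higher, 2120 lower). After centring on invariant probes 56.0% of the 4 h calls and 59.0% of the 6 h calls were higher, against 49.0% and 48.8% as deposited. The times shared 2416 calls, 68.2% of those at 4 h and 58.4% of those at 6 h, and all but 1 of these had the same sign. Without batch 5, 1619 probes were called at 4 h and 1459 at 6 h, and without batch 4, or without its 6 h arrays alone, 2738 and 2666 at 6 h. The difference between the times was called for 6 probes (0.0266%; 2013 at an unadjusted p under 0.05), 4 higher and 2 lower, at the same adjusted p of 0.0475. The named ones were Zhx2 (0.62 ± 0.11), Tmed6 (0.59 ± 0.10), Sec61a2 (0.59 ± 0.10) and G0s2 (-0.78 ± 0.13), an inhibitor of lipolysis that was 0.28 higher at 4 h and 0.50 lower at 6 h (log2). Apart from the fits without a batch, 7 of the alternatives run called 0 probes. Without batch 6 there were 3, and without batch 4 or batch 5 only 1 pair was left at 6 h.

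Fewer genes were called at 1 h than at 2 h, each with 2 pairs. At 1 h 520 named genes were called higher (3.9%) and 321 lower (2.41%), and at 2 h 1192 (8.94%) and 1153 (8.65%). The mean CHX effect at 4 and 6 h differed from that at 1 and 2 h for 2547 probes (11.3%), and among named genes the difference was positive for 801 (6.01%) and negative for 945 (7.09%). The axis was set by the untreated arrays at 2 h against the other untreated arrays of batches 4 and 5. Their scores of 1.08 and 0.924, against -0.206 to 0.132 for those others, are therefore apart by construction. At 2 h the batch 5 array with gastrin and CHX scored 0.922, and the other treated arrays 0.187 to 0.512. The untreated 2 h arrays enter this comparison. Without the 2 h arrays 1678 probes were called, and with the axis score as a covariate 367. Without batch 4 the count was 1533, and without batch 5 it was 16.

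Of the 15 largest rises 9 were called at 1 h and 13 at 2 h, all 15 were above 0 at both times, and 6 had a late minus early difference that was called. Txnip was already higher by 2.99 ± 0.47 at 1 h and 2.58 ± 0.47 at 2 h, against 2.84 ± 0.38 at 4 h and 3.51 ± 0.47 at 6 h. Gadd45g changed by 2.26, 3.59, 2.76 and 3.23 at 1, 2, 4 and 6 h, and Egr1 by 2.75, 2.47, 2.54 and 2.21. For these 3 genes the late minus early difference was not called (adjusted p = 0.725, 0.975 and 0.862). Dusp1 and Nr1d1 rose later, with 0.95, 1.74, 3.10 and 2.80 for Dusp1 and 0.55, 1.29, 2.39 and 3.49 for Nr1d1. Their late minus early differences were 1.63 ± 0.36 and 1.91 ± 0.31 (adjusted p = 0.00521 and 4.29e-04), and that of Nr1d1 was not called without batch 4 (adjusted p = 0.0732), without batch 5 (0.150) or with the axis score as a covariate (1.04, adjusted p = 0.126).

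Of the 15 largest falls 4 were called at 1 h and 7 at 2 h, 12 and 11 were below 0 at those times, and 13 differed between late and early. Fbxo5 was 0.52 above untreated at 1 h and at 2 h, neither called, and 1.65 and 1.82 below it at 4 and 6 h (log2). The difference was -2.23 ± 0.18 (adjusted p = 3.78e-07). Without batch 5 it was -2.26 and was not called. Dnajb1 changed by 0.08, 0.41, -1.17 and -1.44 (difference -1.53 ± 0.15, adjusted p = 7.01e-06). The difference was not called for Dnajb9, lower by 1.08 at 1 h and by 1.28, 1.40 and 1.29 on the log2 scale at the later times, or for Lrrn1, at -0.81, -0.90, -1.83 and -1.61 (adjusted p = 0.0596). Besides Dnajb9, Hyal2 (-0.60), Acvr2b (-0.97) and Slc16a1 (-0.55) were called lower at 1 h. Genes whose effect turned upward included Dusp10 (-0.03, -0.90, 1.59 and 1.96), Phlda1 (0.38, -0.98, 1.51 and 2.28), the lactate dehydrogenase gene Ldhb (-0.23, -0.90, 1.15 and 1.78) and the chromatin gene Kmt2e (-0.51, -1.19, 0.58 and 1.68). Dips at 2 h in these genes were measured against the untreated 2 h arrays that set the axis, whose part was not tested. Dusp10 was not called with the axis score as a covariate (0.88, adjusted p = 0.145), and Kmt2e neither (0.87, adjusted p = 0.0925). Without batch 5 the differences of Dusp10 and Ldhb were 1.86 and 1.88, and neither was called.

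**Figure D4:**
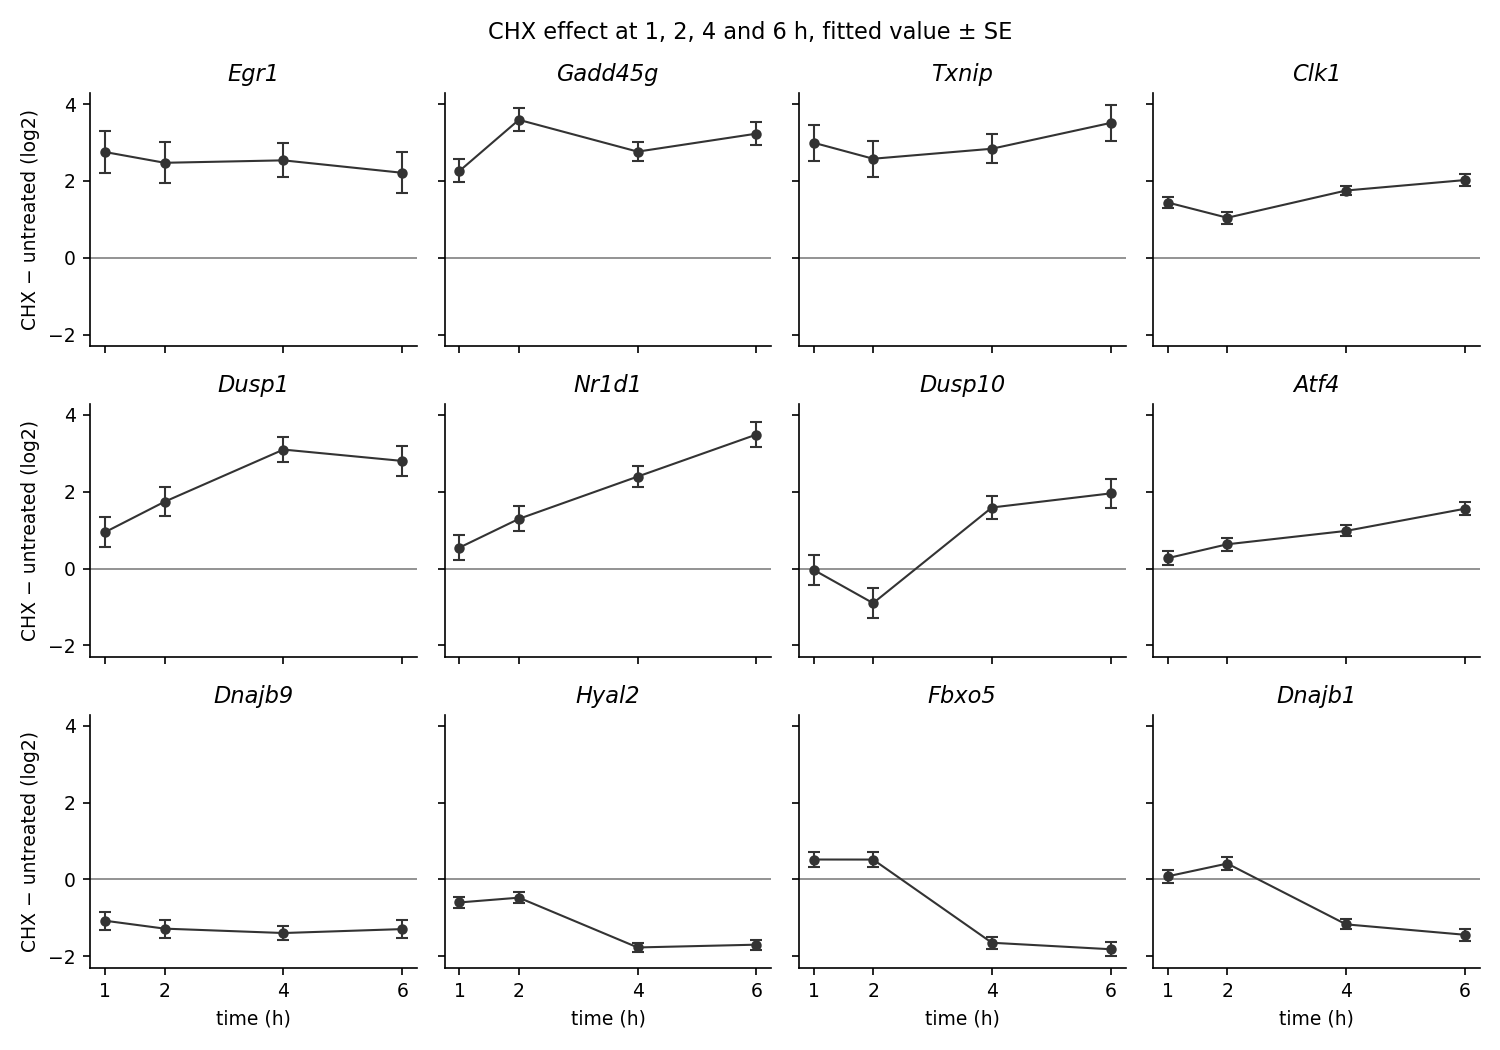
CHX minus untreated on the log2 scale at 1, 2, 4 and 6 h, with SE, for 12 genes. Txnip, Gadd45g and Egr1 are at 2 or more from 1 h on, Dusp1 and Nr1d1 climb to 2.80 and 3.49 at 6 h, and Fbxo5 and Dnajb1 are above 0 at 2 h and below -1 at 4 and 6 h.

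Mitotic genes had the largest share with a late effect below the early one, against 7.09% of all named genes. At 1 h 4 were higher and 0 lower, at 2 h 4 were higher and 2 lower, 18 of 30 had a late effect below the early one, and 1 had it above. The same difference was called negative for 9 of 18 tubulins and their partners, 10 of 36 replication genes, 9 of 29 ER folding genes, 8 of 27 cholesterol genes and 9 of 27 antioxidant genes. It was called for 1 of 25 immediate early factors, of which 6 were already higher at 1 h and 12 at 2 h. Of the decay-prone genes 10 were higher at 1 h and 11 at 2 h, and 10 had a larger late effect. Without batch 5, fewer probes were called in the whole table than the 18 mitotic genes alone. That fit had only batch 4 at 1 and 2 h, and the parts of the batch and of the number of arrays cannot be told apart.

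Nearly all calls that CHX gave both with and without gastrin had the same sign. Gastrin with CHX against gastrin alone called 5487 probes (24.4%), with 1924 named genes higher (14.4%) and 2022 lower (15.2%), and after centring on invariant probes 55.4% of the probe calls were higher, against 48.1% as deposited. The comparison shares no array with CHX against untreated. The 2 sets of calls had 4001 probes in common, 71.1% of those without gastrin and 72.9% of those with it, and 3990 of these had the same sign. All 15 of the largest rises and all 15 of the largest falls were called with gastrin too, at 1.56 to 3.23 and at -1.86 to -0.94. Without batch 5, 3148 probes were called.

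The difference between the CHX effect with gastrin and that without was called for 74 probes (0.329%; 2042 at an unadjusted p under 0.05), 44 higher and 30 lower, and for 38 named genes it was positive (0.285%) and for 25 negative (0.187%). Nr4a2 averaged 8.54 ± 0.37 with gastrin and CHX and 6.92 ± 0.51 with gastrin alone, against 6.47 ± 0.27 with CHX alone and 6.55 ± 0.12 untreated (SD, n = 5 each). Its CHX effect was thus 1.62 with gastrin and -0.08 without, a difference of 1.69 ± 0.34. Slc1a3, a glutamate transporter gene, differed by 1.07 ± 0.13 (1.36 with gastrin, 0.29 without; adjusted p = 2.21e-04), and the kinase gene Dyrk3 by 1.38 ± 0.19 (0.94 with, -0.44 without; adjusted p = 0.00185). The other largest positive differences were those of Spsb2 and Plat, both 1.14.

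On the negative side stood Ihh, which encodes the ligand Indian hedgehog. It averaged 6.65 ± 0.12 with gastrin and CHX and 8.60 ± 0.59 with gastrin, against 6.76 ± 0.16 with CHX and 6.75 ± 0.37 untreated (SD, n = 5 each). Only the gastrin arrays were high, and the difference was -1.97 ± 0.23 (adjusted p = 2.21e-04). A second probe of Ihh changed by -0.08 with CHX alone, against 0.02 for the probe used, neither called. Asns averaged 8.09 ± 0.15 with gastrin and CHX and 9.97 ± 0.29 with gastrin, against 8.04 ± 0.13 with CHX and 8.99 ± 0.33 untreated (SD, n = 5 each). The levels with CHX were close to each other in both settings, and the difference of effects was -0.93 ± 0.14 (adjusted p = 0.00327). Eif4ebp1, the inhibitor of eIF4E and like Asns a known ATF4 target, differed by -0.83 ± 0.16, the synthetase genes Gars1 and Lars1 by -0.66 ± 0.13 and -0.57 ± 0.08, and Atf4 itself by -0.74 ± 0.16 (0.47 with gastrin, 1.21 without; adjusted p = 0.0394). Klhdc8a and Fut1 differed by -1.10 and -1.03.

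Gene lists were counted in both settings. The ATF4 response gave 5 higher and 16 lower of 31 with gastrin, against 6 and 10 without, and the synthetases 14 of 17 lower, against 10. Replication genes gave 12 higher and 8 lower with gastrin, against 1 and 21 without, with medians of 0.03 and -0.26. The difference itself was called for 3 of them, all positive: Ung, a uracil glycosylase gene (0.80 ± 0.14), Mcm6 of the replicative helicase (0.77 ± 0.14) and Pold1, a polymerase subunit gene (0.48 ± 0.10). Mitotic genes were 1 higher and 17 lower with gastrin and 1 and 20 without, and immediate early factors 19 and 0 with gastrin and 17 and 0 without. Each of the 10 genes with the largest differences lost its call without batch 4 or without batch 5, which left 3 and 0 probes called over the whole table.

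**Figure D5:**
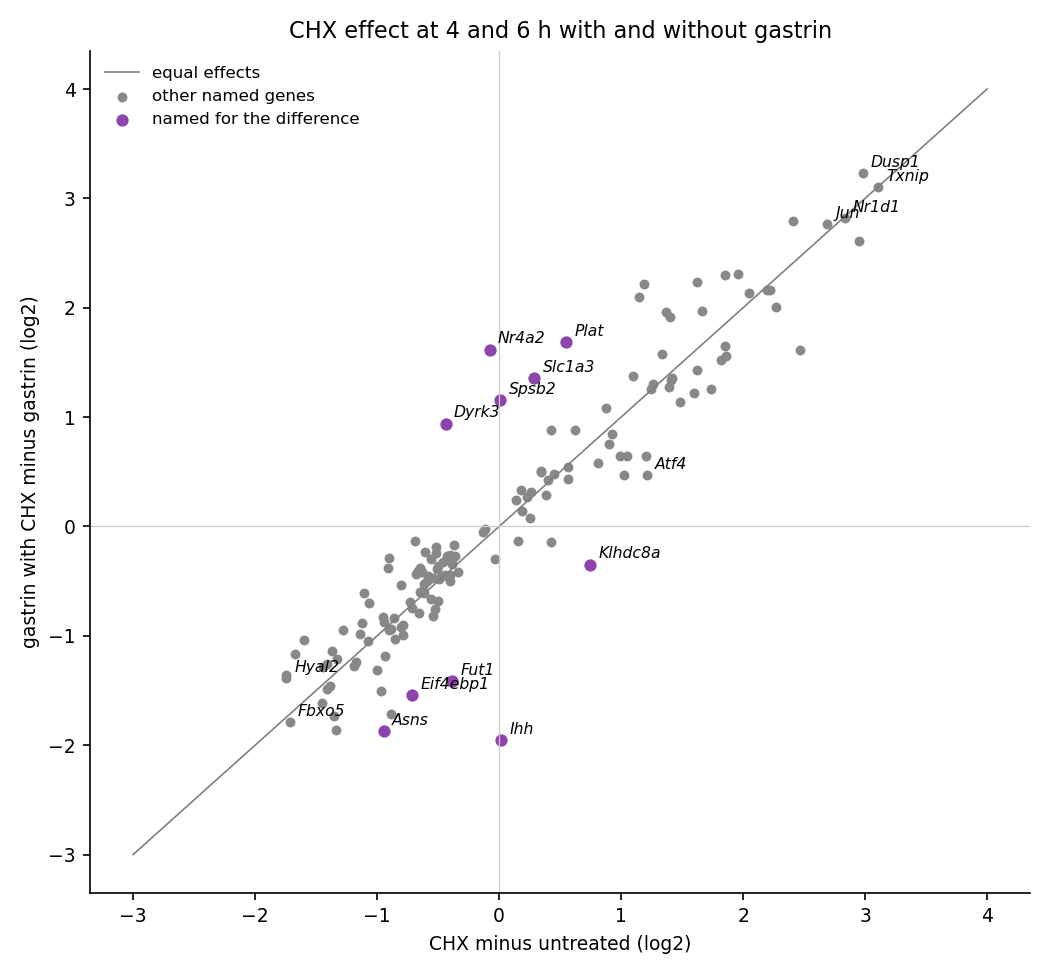
CHX effect on the log2 scale with gastrin (vertical) against that without gastrin (horizontal) for the 149 genes picked by the naming rule. The line of equal effects and the genes of the largest tested differences are marked. Most of these 149 genes lie along the line, and Nr4a2 and Slc1a3 lie above it while Ihh and Asns lie below it.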

How the data were processed

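The deposited values of the series matrix are on a log2 scale (5.51 to 14.84) for 22523 probes on 90 arrays, and lumi 2.4.0 was used to make them, per the submitters' processing notes. No source used here gives whether this log2 is plain or variance-stabilised, and a change of a dim probe need not equal a log2 ratio of intensity. Detection calls and scanner intensities were not used here, so signal over background is unknown and the number of arrays limits the precision. Stimulus, time and batch came from the labels. In 2 arrays of batch 3 the title contradicts the stimulus label, and these were left out. The 4 arrays of batches 4 and 5 at 1 h with unnumbered titles (2 gastrin, 2 untreated) were left out of the fit, since that title series has no CHX array at 1 h.

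limma 3.58.1 in R 4.3.3 (lmFit and eBayes) was fitted to 36 arrays of batches 4 to 6 at 1, 2, 4 and 6 h, with the technical replicates of batch 6 averaged first. The fit had 9 blocks of batch and time and 12 coefficients of stimulus and time, which left 15 residual degrees of freedom. The main contrast is the mean of the 5 pair differences. Adjustment was by Benjamini-Hochberg over all probes with a threshold of 0.05, and 7 contrasts were tested. The labels name the batch that a pair shares, and deviations of paired arrays from their group means had correlations of 0.371, 0.578 and 0.725 at 4 h and 0.413 at 6 h. The fit was tested on simulated data.

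The platform annotation gave 1 symbol for 13793 probes and none for 8730. Of the named probes 13752 matched the rat gene table of assembly GRCr8. For 425 genes with several probes the brightest stands for the gene, and 8 other probes of 7 genes chosen by the naming rule were checked, of which those of Ihh and Zbed4 had the opposite sign in 1 probe each. Promoters came from RefSeq (GRCr8), and those of 23 of the 30 leading genes were in the table used.

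The members, gene lists, tests and alternatives were chosen with earlier results of these data known. The rule for named genes took the 15 largest called rises and falls with the same sign in all 5 pairs, the 5 largest called differences each way for each difference test, and up to 4 called members of each list by size of change. Genes named beyond these, among them Myc, Atf3, Rbm39, Nfe2l2 and Rbpjl, and all uncalled ones, were chosen after their values were seen, as were the promoters printed. Alternatives covered the arrays in the fit, the block, the weight of the times, each batch left out, the batch 4 arrays at 6 h, a principal component as covariate, limma's trend, robust and array weight options, a filter on dim probes, centring and several probes of a gene. The score of each array on the axis of the untreated 2 h arrays, as a covariate, and a fit without the 2 h arrays were added after seeing the data.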

Additional observations from a re-analysis of the deposited data

Results flagged for a closer look

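In 1 gene among the largest changes a single pair lay far from the other 4: Slc16a1 fell by 1.75 in batch 5 at 6 h and by 1.26 to 1.34 on the log2 scale in the other pairs. The test for such a gap (Dixon's ratio, critical value 0.71 for groups of 5) flags about 1 in 20 groups by chance.

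The CHX effect differed between 6 and 4 h for 6 probes with limma, of which the named ones were Zhx2 (0.62), Tmed6 (0.59), Sec61a2 (0.59) and G0s2 (-0.78). It differed between late (4 and 6 h) and early (1 and 2 h) times for 2547 probes. The largest positive differences were those of Dusp10 (2.20), Phlda1 (2.12), Ldhb (1.96), Nr1d1 (1.91) and Kmt2e (1.87). The largest negative ones were those of Fbxo5 (-2.23), Efnb1 (-1.67), Dnajb1 (-1.53), Chst1 (-1.41) and Lzts1 (-1.37). Efnb1, which encodes an ephrin, changed by -0.10, 1.31, -0.83 and -1.43 at 1, 2, 4 and 6 h, and Lzts1 by 0.15, 0.79, -0.54 and -1.46. Without batch 5, which left 16 probes called, neither passed.

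With gastrin the CHX effect differed from that without it for 74 probes. The differences were 1.69 for Nr4a2, 1.38 for Dyrk3, 1.14 for Spsb2, 1.14 for Plat and 1.07 for Slc1a3, and they were -1.97 for Ihh, -1.10 for Klhdc8a, -1.03 for Fut1, -0.93 for Asns and -0.83 for Eif4ebp1. Without batch 4, 3 probes were called, and without batch 5, 0.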

How the results depend on the processing

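Counts of called probes (limma, adjusted p under 0.05) depended most on the pairing and on batch 5. The main fits had the replicate block, and the fits with no replicate block called 3029 probes for CHX over untreated at 4 and 6 h, 1248 at 4 h, 1570 at 6 h, 0 for 6 h minus 4 h, 353 for late minus early, 3020 with gastrin and 4 for the difference with gastrin. Leaving out 1 batch gave 2992 to 5144 for 4 and 6 h, 1619 to 3275 at 4 h, 1459 to 4002 at 6 h, 0 to 13 for 6 h minus 4 h, 16 to 2499 for late minus early, 3148 to 5018 with gastrin and 0 to 66 for the difference with gastrin. At 6 h the fit on the 5 pairs alone gave 2720 and that without the batch 4 arrays at 6 h gave 2666. For 6 h minus 4 h the count was 0 with the 5 pairs alone, additive terms, array weights, the brighter probes, gene means or the axis score, and it was 2 without the batch 4 arrays at 6 h, 3 with trend and robust options and 1 without the 2 h arrays. Late minus early gave 1637 with the principal component as covariate, 367 with the axis score and 1678 without the 2 h arrays. With gastrin the principal component gave 3564. The difference with gastrin gave 23 with additive terms and 45 with 1 coefficient per window. Over 155 results of named genes and their alternatives, 2603 values in all, 0 reversed, 200 lost their call and 1 gained it (Des, -0.21, adjusted p = 0.0157, with the principal component). The causes of these shifts were not tested. Leaving out a batch also left fewer arrays, and the parts of the batch and of the number of arrays cannot be told apart. The 5 pairs, the joining of time with title series and the missing detection calls limit what these arrays can show.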

Other observations

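Among the 4001 probes called for CHX both with and without gastrin, 11 had opposite signs, and 10 of these carry a symbol: Batf3, Dyrk3, Golt1b, Inpp5a, Lrp2bp, Mcm7, Ppp2r2b, Rhpn2, Uhrf1 and Ung. Ung, the uracil glycosylase gene, was higher by 0.40 with CHX in gastrin-treated cells and lower by 0.40 with CHX alone (log2). Ung, Uhrf1 and Mcm7 are known to act in S phase or on newly made DNA. They were singled out after their values were seen, and of the list of 36 replication genes Ung was among the 3 whose difference was called.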
